A study of Mus musculus with 12 samples.

Results

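The 47 genes described here are interferon-stimulated antiviral and signalling genes of the mouse, together with the receptors and transcription factors that drive them. They were chosen by name, as a list of type I interferon-stimulated genes, interferon receptors, interferon regulatory factors and Stat2, and all 47 were found among the 16389 genes of the table. RNA was sequenced in 12 libraries of eGFP+ cells, which were sorted by FACS without dead (7-AAD+) cells from the thoracic spinal cord around the lesion. The mice were adult Aldh1l1-EGFP males on a Swiss Webster background, and the injured ones were 12 weeks old at surgery. No separate age is given for the non-injured mice. A transgene drives eGFP from the promoter of the astrocytic enzyme Aldh1l1, and it was carried by uninjured and injured mice alike. There were 3 libraries of non-injured controls (NI). Lateral hemisection (HS) of the cord was represented by 3 libraries at the 1 week time point and by 2 later, 2 weeks after surgery, and full transection (FT) by a single library (1 week) and by 3 (2 weeks). Every library pooled several animals, and with 1 library of FT at 1 week the values of that condition have no replicate here.

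Type I interferons bind the receptor chains Ifnar1 and Ifnar2 and interferon gamma binds Ifngr1 and Ifngr2. Both receptors act through JAK kinases and STAT proteins: type I interferon assembles a complex that contains Stat2 and Irf9 and binds the interferon-stimulated response element (ISRE) of its target genes, whereas interferon gamma acts mainly through a STAT dimer on the GAS element. The induced proteins block viral RNA, protein synthesis and membrane fusion, and some of them, such as Irf7 and the cytosolic RNA sensors, feed back on interferon production. In the central nervous system both microglia and astrocytes can respond to interferons, and microglia express several of these genes at rest, including Irf8, the transcription factor that macrophage-lineage cells need.

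Values are normalized counts, in which a single read was worth between 0.0612 and 0.134, from libraries of 8270643 to 15562378 reads. Of the members, 45 had at least 10 reads in every library, the lowest count of any member in any library was 8 reads, and all 47 entered the test. A gene was called where limma-trend on log2 of the normalized count plus 1 gave an adjusted p under 0.05 over the 16388 tested genes and the fitted change was 2-fold or more. The edgeR likelihood ratio test, a negative binomial model like that of the study's methods, was run beside it on the recovered reads. The spread of the FT 1 week library is taken from the other groups in both tests. Nothing in the labels states that the libraries of a group came from separate experiments, so p-values measure the spread between these libraries.

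The libraries differed in their content of other cells. The summed normalized counts of 17 microglia and macrophage markers were 881, 5570 and 7383 in NI, 3369, 998 and 12230 at HS 1 week, 11700 and 2000.0 at HS 2 weeks, 9289 at FT 1 week and 2046, 1388 and 2381 at FT 2 weeks. All 17 markers had reads in every library. The sum of 12 astrocyte markers ran between 756 and 10210, and its 4 lowest libraries (NI replicate 3, HS 1 week replicate 3, HS 2 weeks replicate 1 and FT 1 week, at most 1352) were the 4 with the highest microglia sums. The 7 neutrophil markers summed to 681, 5696 and 9795 in NI, to between 87.5 and 2621 after HS and to between 43.4 and 136 after FT. The 12 oligodendrocyte markers summed to between 55380 and 115000 in all 12 libraries, against the label of astrocytes. The level of a gene in such a mixed library depends both on how many cells of a type were sorted and on the RNA per cell, and these cannot be told apart here. The part of these cells in the results below was not tested, except where a value is given.

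As a set, the members stood highest in the FT 1 week library. The median difference of the 47 members from their NI mean, on the log2 scale, was 2.03 in the FT 1 week library, 0.66, 0.29 and 1.35 in the 3 libraries of HS 1 week, 1.39 and -0.09 in the 2 libraries of HS 2 weeks, and 0.00, 0.25 and 0.28 in the 3 libraries of FT 2 weeks. The same median over all tested genes lay between -0.04 and 0.02 in every library. For 28 members the highest value of the 12 stood in this library (7.98% of all tested genes had their highest value there). The pair of HS 2 weeks libraries disagreed, with replicate 1 at least 2-fold above replicate 2 for 35 members (6.39% of tested genes), so that every mean of this group below lies between a high and a low library.

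**Figure D1:**
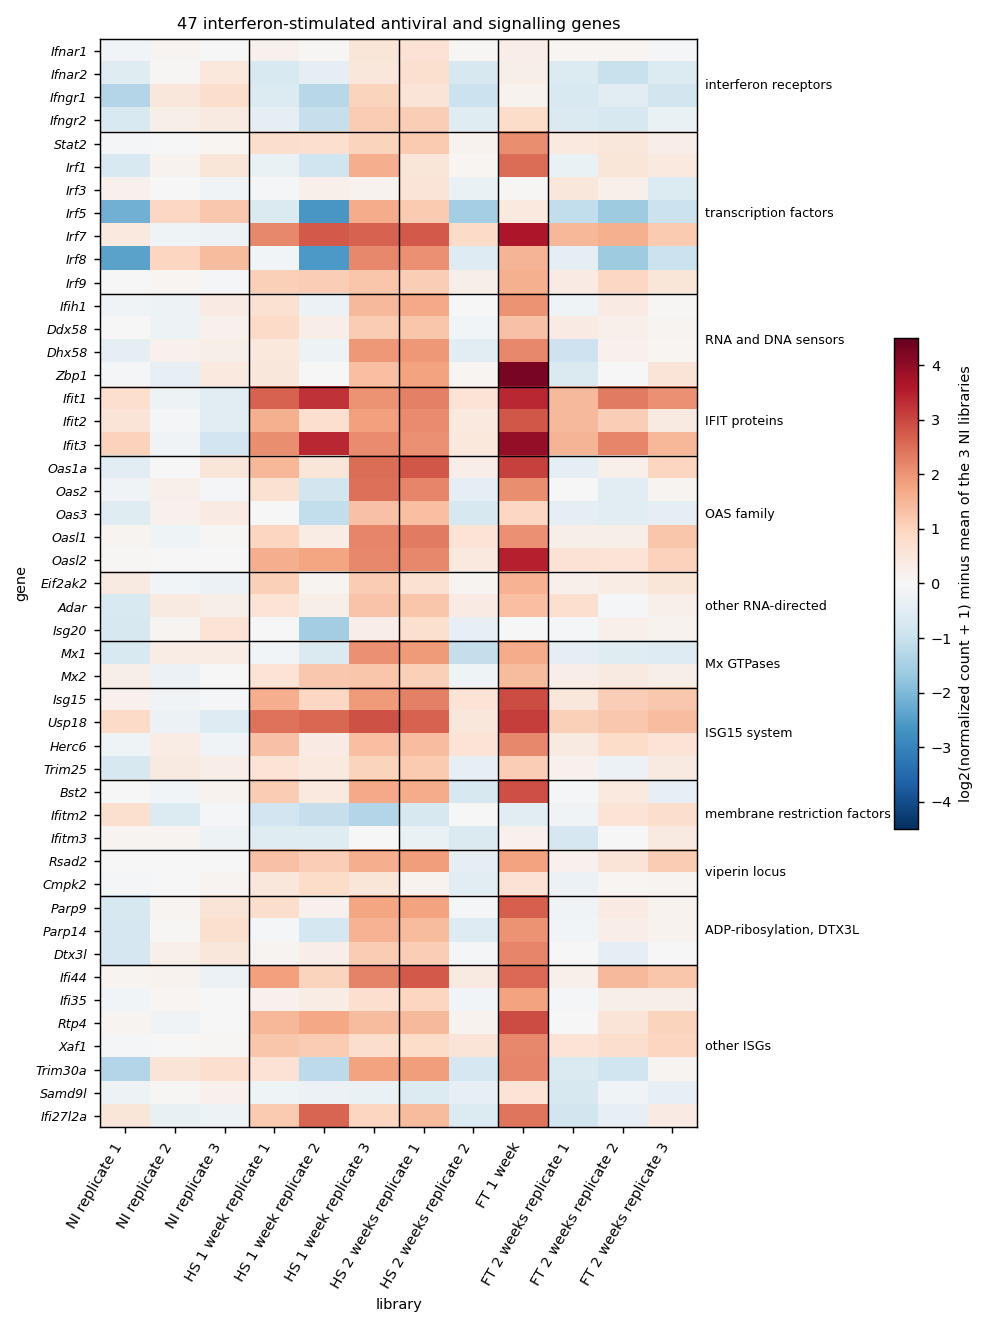
Heat map of the 47 members (rows, grouped by role) in the 12 libraries (columns), in which color gives log2(normalized count + 1) minus the mean of the 3 NI libraries. The FT 1 week column is the warmest, HS 1 week replicate 3 and HS 2 weeks replicate 1 follow, and the rows of the receptors, Irf3, Isg20, Ifitm2 and Ifitm3 stay pale there.

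Against NI, 6 members rose at FT 1 week and no member passed limma-trend in the other groups. At FT 1 week the 6 were Irf7, Stat2, Zbp1, Oasl2, Rtp4 and Xaf1, whereas 0.372% of all tested genes were called higher. With only the NI and FT 1 week libraries in the fit, 0 members were called there. The likelihood ratio test called 21 members higher (1.14% of tested genes), and 41 members lay above every NI library (27.2%). For HS 1 week, limma-trend called 0 members (0.0061% of tested genes), with 21 at an unadjusted p under 0.05 (7.66% of tested genes); the likelihood ratio test called 6 (0.299% higher), DESeq2 9 and the edgeR quasi-likelihood test 0, and all 3 libraries exceeded every NI library for 22 members (7.31%). For HS 2 weeks the limma-trend count was 0 (0.0122%), with 12 at an unadjusted p under 0.05 (7.49%), 4 by the likelihood ratio test (0.421% higher), 2 by DESeq2 and 0 by quasi-likelihood, 10 members lay above NI in every library (12.9%) and 2 below it (11.6%). For FT 2 weeks the count was 0 (0.0427%), with 7 at an unadjusted p under 0.05 (10.8%), 2 by the likelihood ratio test (0.47% higher), 2 by DESeq2 and 0 by quasi-likelihood, and 14 members lay above NI in every library (6.92%). At FT 1 week the microglia markers had a median log2 fold change of 1.72, and 11 of the 17 lay above every NI library (27.2% of tested genes). Limma-trend and the likelihood ratio test called 0 of the 17, and 2 had an unadjusted limma-trend p under 0.05. The 4 comparisons share their NI libraries and are not independent of each other. The median log2 fold change of the 47 members was 0.74 at HS 1 week, 0.57 at HS 2 weeks, 2.03 at FT 1 week and 0.13 at FT 2 weeks. The median at HS 2 weeks was -0.09 without its replicate 1 and 1.39 without its replicate 2, and at FT 2 weeks it was -0.01 without NI replicate 1.

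**Figure D2:**
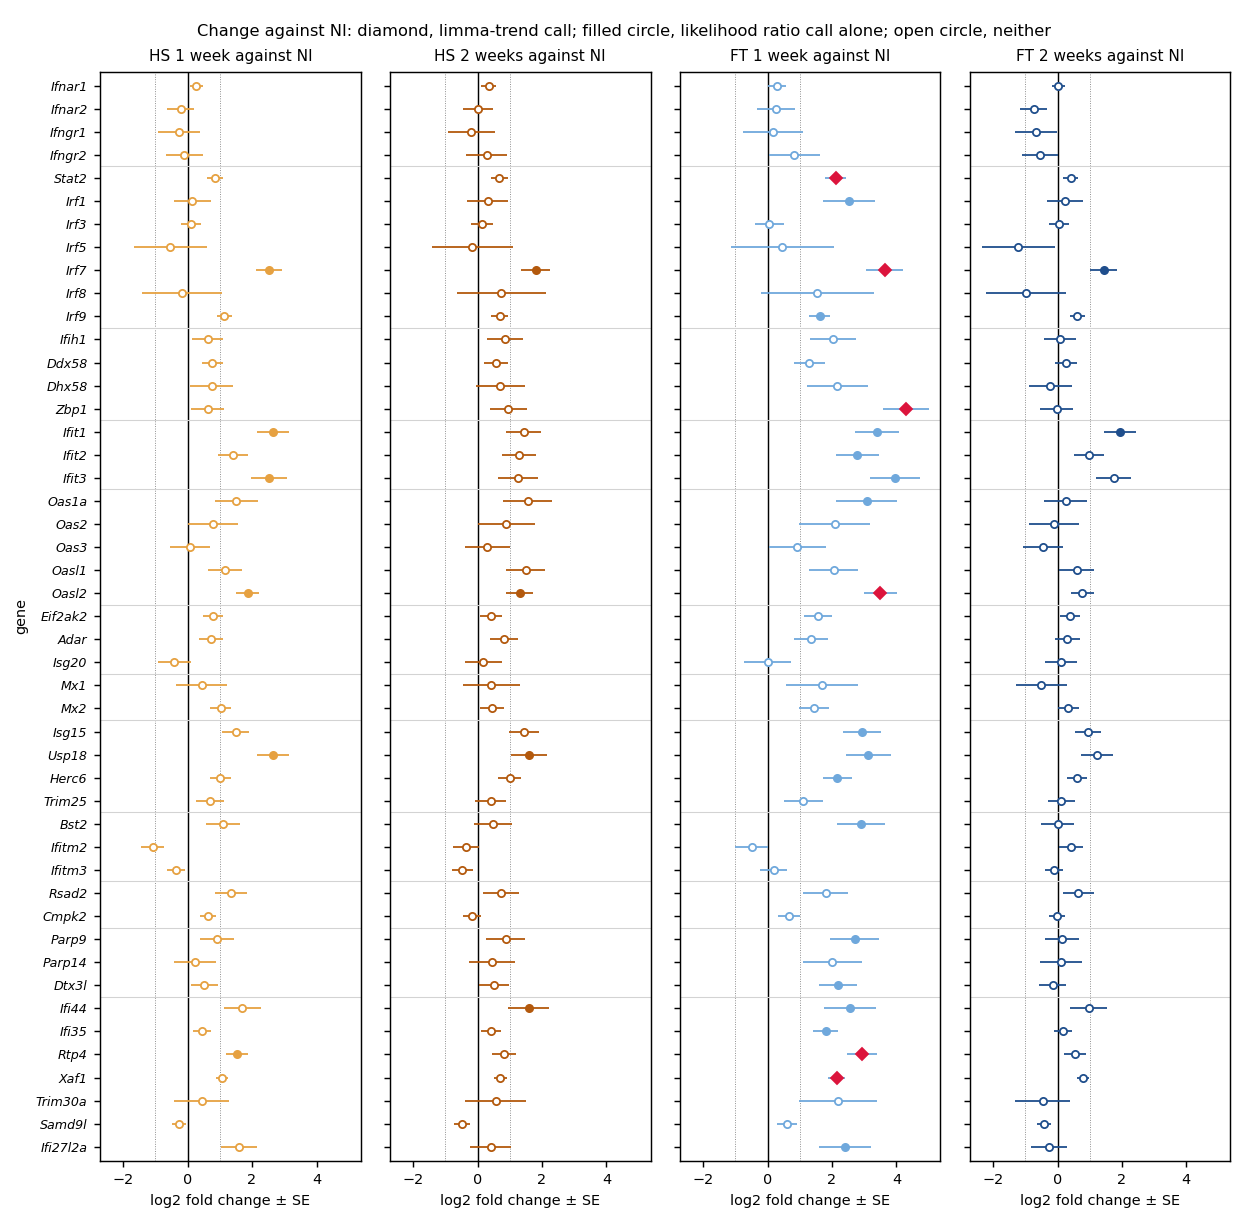
Log2 fold change against NI with its standard error (bars) from limma-trend for the 47 members in the 4 injured groups; dotted lines mark 2-fold. Diamonds mark limma-trend calls, filled circles those of the likelihood ratio test but not limma-trend and open circles neither, and the 6 diamonds all stand in the FT 1 week panel.

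Sequence around the start sites was compared with a promoter table from RefSeq (GRCm38.p6, 250 bases before to 50 after the start site), which held 37 of the 47 members. The letters GAAA, then NN (any 2 bases), then GAAA, a short form of the ISRE, were present on either strand in 14 of these 37 members (37.8%) and in 3.99% of the 27025 genes of the table. The letters TTCNNNGAA, a short form of the GAS element, were present in 12 of the 37 (32.4%) and in 9.55% of the table. In Bst2 and Ifitm3 a GAS match overlapped an ISRE match. Of the called members, Stat2 held an ISRE match and Irf7, Oasl2 and Xaf1 held none in this window, and Zbp1 and Rtp4 had no entry in the table. The windows of 5 members are shown, a choice made once their values and sequences were known. They carry the ISRE letters of Stat2, the only called member with a match, and of 4 members of the antiviral response that are described below. Each is written 5′ to 3′ on the strand of the gene, with the ISRE letters of either orientation in capitals. They are Stat2 at chr10:128270248-128270315 (plus strand, first match 222 bases before the start site), Ifit1 at chr19:34640755-34640843 (plus strand, 104 bases before), Ifit3 at chr19:34583343-34583446 (plus strand, 156 bases before), Isg15 at chr4:156200845-156200926 (minus strand, 78 bases before) and Bst2 at chr8:71537557-71537632 (minus strand, 130 bases before).
Stat2: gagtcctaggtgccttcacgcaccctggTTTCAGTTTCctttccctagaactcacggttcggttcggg
Ifit1: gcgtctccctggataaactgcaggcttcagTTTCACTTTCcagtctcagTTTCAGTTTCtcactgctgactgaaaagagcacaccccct
Ifit3: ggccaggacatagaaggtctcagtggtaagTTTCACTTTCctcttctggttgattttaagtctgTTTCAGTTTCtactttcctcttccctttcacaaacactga
Isg15: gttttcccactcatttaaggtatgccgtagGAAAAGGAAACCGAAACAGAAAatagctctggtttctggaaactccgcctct
Bst2: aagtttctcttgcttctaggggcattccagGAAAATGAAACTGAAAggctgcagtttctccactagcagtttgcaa

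Ifit1 and Ifit3 each carry 2 separate matches, whereas the 3 matches of Isg15 and the 2 of Bst2 run into each other. These are matches of letters, and no binding was measured. By role, an ISRE match was held by 0 of the 4 receptors, 1 of the 7 transcription factors, both RNA sensors in the table, 2 of the 3 IFIT genes, 2 of the 4 OAS genes in the table and all 3 membrane restriction factors. Of the other roles, it was held by 1 of the 3 other RNA-directed effectors and 1 of the 3 ISG15 system genes in the table. Rsad2 held a match and Cmpk2 none. Dtx3l, the 1 gene of its complex in the table, held none, as did 4 of the 5 other interferon-stimulated genes in the table. Neither Mx gene had an entry.

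The interferon receptors did not pass limma-trend or the likelihood ratio test in any comparison, and 0 of the 4 had an unadjusted p under 0.05 in any of them. Ifnar1, the low-affinity chain of the type I receptor that carries Tyk2, was at 58.5, 69.8 and 65.6 in NI, 73.3, 66.8 and 94.9 at HS 1 week, 103 and 66.6 at HS 2 weeks, 78.97 at FT 1 week and 68.95, 68.4 and 60.3 at FT 2 weeks. Ifnar2, its ligand-binding partner, was at 32.9, 49.9 and 67.2 in NI, 29.8, 34.7 and 68.3 at HS 1 week, 80.4 and 28.9 at HS 2 weeks, 58.1 at FT 1 week and 31.3, 23.4 and 30.8 at FT 2 weeks. The HS groups overlapped NI for both chains, and Ifnar2 was the 1 member whose FT 2 weeks libraries all lay below NI (7.99% of tested genes did so, log2 fold change -0.74 ± 0.42, adjusted p = 0.551). Ifngr1, the ligand-binding chain of the interferon gamma receptor, was at 62.6, 223 and 271 in NI, 101, 65.3 and 317 at HS 1 week, 234 and 78.4 at HS 2 weeks, 176 at FT 1 week and 96.7, 108 and 87.7 at FT 2 weeks. Ifngr2, its signalling chain, was at 25.2, 50.2 and 55.1 in NI, 30.1, 19.8 and 93.4 at HS 1 week, 90.2 and 27.8 at HS 2 weeks, 74.1 at FT 1 week and 25.7, 24.9 and 33.4 at FT 2 weeks. Within NI, HS 1 week and HS 2 weeks alike, Ifngr1 and Ifngr2 were highest in the library with the largest microglia sum, and both overlapped NI in every group except Ifngr2 at FT 1 week. At FT 1 week the log2 fold changes of the 4 chains lay between 0.17 and 0.83. Of the interferon ligands, 2 of the 10 listed were in the table. Ifnb1, interferon beta, read 1.02, 1.08 and 1.15 in NI, 1.94, 0 and 5.14 at HS 1 week, 2.42 and 0 at HS 2 weeks, 2.55 at FT 1 week and 0, 0.932 and 2.001 at FT 2 weeks. Ifnk, interferon kappa, stayed between 0.157 and 1.09 in all libraries, and neither ligand passed the test.

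Among the 7 transcription factors, Irf7 and Stat2 rose at FT 1 week. Irf7, the factor that amplifies type I interferon transcription, read 18.9, 11.9 and 11.6 in NI, 65.5, 99.1 and 91.2 at HS 1 week, 98.05 and 25.9 at HS 2 weeks, 183 at FT 1 week and 40.1, 44.3 and 32.7 at FT 2 weeks. All 9 injured libraries lay above all 3 NI libraries. Its log2 fold change, here and below with its standard error, was 3.64 ± 0.57 at FT 1 week (adjusted p = 0.0203), 2.52 ± 0.41 at HS 1 week (adjusted p = 0.116), 1.81 ± 0.45 at HS 2 weeks (adjusted p = 0.455) and 1.43 ± 0.41 at FT 2 weeks (adjusted p = 0.347). By the likelihood ratio test Irf7 passed in all 4 comparisons, with adjusted p-values of 3.23e-09, 6.22e-06, 0.00207 and 0.0328 in the same order. Without NI replicate 2 or NI replicate 3 the limma-trend call at FT 1 week was lost.

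Stat2, the STAT that is specific to type I and III interferon signalling, was even across NI at 22.4, 24.3 and 25.2, and read 42.3, 41.1 and 49.2 at HS 1 week, 55.6 and 26.8 at HS 2 weeks, 107 at FT 1 week and 32.5, 34.6 and 29.4 at FT 2 weeks. No injured library overlapped NI. The log2 fold change was 2.11 ± 0.34 at FT 1 week (adjusted p = 0.022) and did not pass the test in the other groups, at 0.85 ± 0.24, 0.67 ± 0.27 and 0.41 ± 0.24 for HS 1 week, HS 2 weeks and FT 2 weeks. The call was lost without NI replicate 2, NI replicate 3 or FT 2 weeks replicate 2. Irf9, the DNA-binding partner of Stat2, followed a like order with 30.1, 32.4 and 28.6 in NI, 65.5, 66.7 and 72.7 at HS 1 week, 65.7 and 36.5 at HS 2 weeks, 94.95 at FT 1 week and 39.7, 58.6 and 45.1 at FT 2 weeks. Its libraries also did not overlap NI in any injured group, with log2 fold changes of 1.62 ± 0.32 at FT 1 week (adjusted p = 0.0654) and 1.14 ± 0.23 at HS 1 week (adjusted p = 0.229), and it passed the likelihood ratio test at FT 1 week (adjusted p = 0.0111) and DESeq2 in both of these comparisons.

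Irf1, a factor shared by the type I and gamma pathways, was not called by limma-trend and passed the likelihood ratio test at FT 1 week (adjusted p = 0.0187). It read 180.0 there, against a range of 18.5 to 44.6 in NI and 95.8 in HS 1 week replicate 3, the next library, and its limma-trend log2 fold change was 2.53 ± 0.80 (adjusted p = 0.272). Irf8 was at 8.33, 96.4 and 132 in NI, 44.2, 7.20 and 219.9 at HS 1 week, 206 and 31.9 at HS 2 weeks, 143 at FT 1 week and 36.5, 15.4 and 24.5 at FT 2 weeks. In NI and both HS groups the order of its libraries was that of the microglia sum, and its standard error on the log2 scale was 1.24 at HS 1 week, far above the 0.24 of Stat2. Irf5, another factor of myeloid cells, had NI values of 6.92, 66.3 and 80.1 and 46.9 at FT 1 week, and Irf3, the constitutive factor upstream of interferon beta, stayed between 15.1 and 35.3 in all 12 libraries with a log2 fold change of 0.06 ± 0.44 at FT 1 week.

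**Figure D3:**
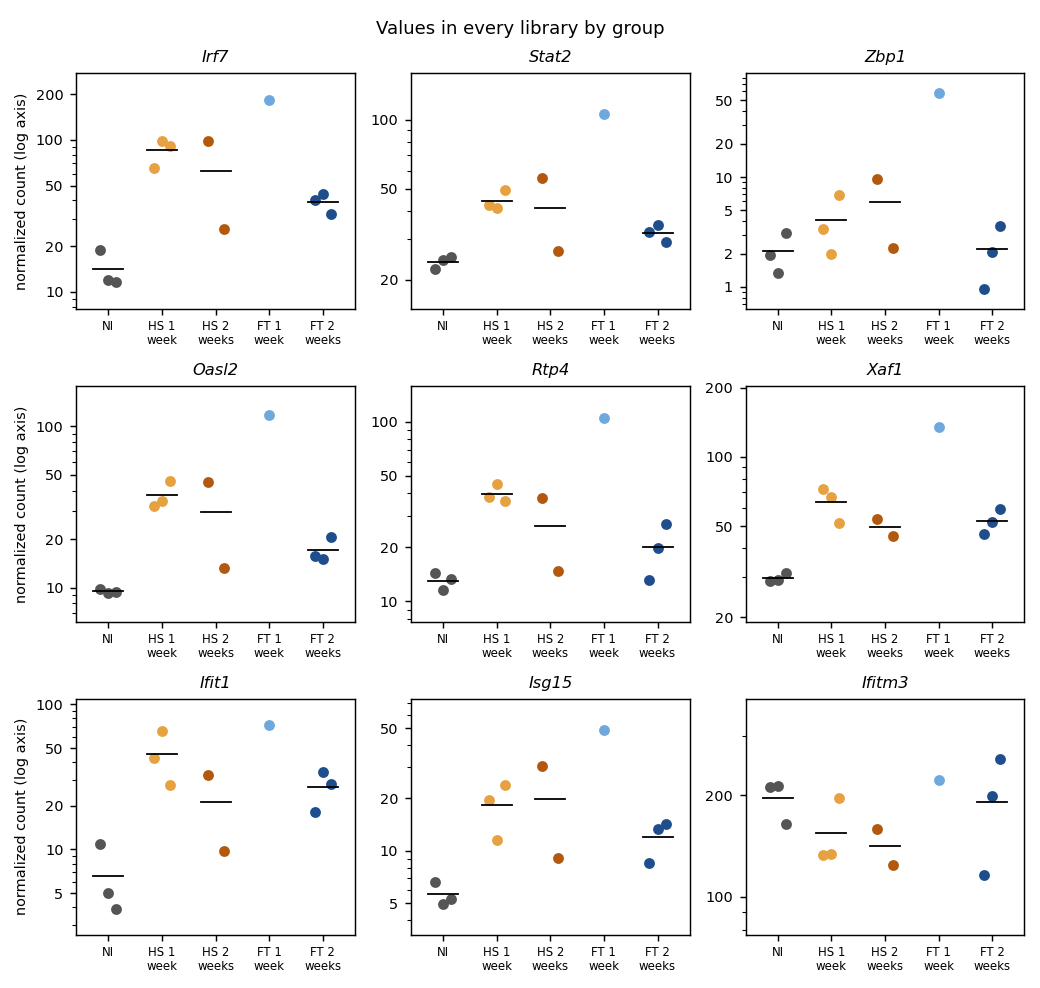
Normalized count (log axis) of each library (points) by group for the 6 members called at FT 1 week, for Ifit1 and Isg15, and for Ifitm3, which was not called; the line is the group mean and FT 1 week is a single library. For Irf7, Stat2, Oasl2, Rtp4 and Xaf1 the FT 1 week point is the highest and all HS 1 week points lie above NI, whereas those of Zbp1 overlap NI.

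Of the 4 nucleic acid sensors, Zbp1 rose at FT 1 week, by the largest log2 fold change of any member in that comparison. Zbp1, a sensor of Z-form nucleic acids that can start necroptosis, read 1.96, 1.34 and 3.10 in NI, 3.39, 1.995 and 6.79 at HS 1 week, 9.68 and 2.27 at HS 2 weeks, 58.6 at FT 1 week and 0.95, 2.10 and 3.56 at FT 2 weeks. The FT 1 week library thus stood alone, and the libraries of the other injured groups overlapped NI. The log2 fold change was 4.29 ± 0.71 at FT 1 week (adjusted p = 0.0263), and the ratio of the plain means was 27.4. The call was lost with a pseudocount of 0.25 and without NI replicate 2, NI replicate 3, HS 1 week replicate 1 or FT 2 weeks replicate 2. The RNA helicases did not pass either test in any comparison. Ifih1 (MDA5) read 35.7, Ddx58 (RIG-I) 37.7 and Dhx58 (LGP2) 23.4 at FT 1 week, where each lay above all NI libraries, with log2 fold changes of 2.03 ± 0.70, 1.30 ± 0.48 and 2.17 ± 0.95.

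The IFIT genes, which encode proteins that bind foreign RNA and halt its translation, lie together on chromosome 19 and had higher values in most injured libraries. Ifit1 was at 10.9, 4.98 and 3.89 in NI, 42.8, 65.5 and 27.8 at HS 1 week, 32.6 and 9.74 at HS 2 weeks, 72.7 at FT 1 week and 18.1, 34.3 and 28.1 at FT 2 weeks. Ifit3 was at 16.4, 6.70 and 3.67 in NI, 35.04, 88.9 and 36.5 at HS 1 week, 34.2 and 10.8 at HS 2 weeks, 132 at FT 1 week and 23.7, 37.98 and 23.2 at FT 2 weeks. For both genes NI replicate 1 was the highest of its group, and all libraries of HS 1 week, FT 1 week and FT 2 weeks lay above it. The log2 fold changes of Ifit1 were 2.64 ± 0.49 at HS 1 week, 3.39 ± 0.69 at FT 1 week and 1.94 ± 0.49 at FT 2 weeks, with adjusted p-values of 0.179, 0.0692 and 0.315 by limma-trend and of 7.21e-05, 8.35e-06 and 0.00795 by the likelihood ratio test. Those of Ifit3 were 2.53 ± 0.55, 3.95 ± 0.78 and 1.74 ± 0.55 in the same order, with limma-trend adjusted p-values of 0.291, 0.0619 and 0.347, and it passed the likelihood ratio test at HS 1 week (adjusted p = 0.00175) and FT 1 week (adjusted p = 2.79e-06). Ifit2 reached 135 at FT 1 week from 28.2, 18 and 12.9 in NI and passed the likelihood ratio test there (adjusted p = 0.00031). Ifit3 has a near-identical neighbour, Ifit3b, and reads may be divided between them.

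Among the OAS family, whose active enzymes sense double-stranded RNA and lead to activation of RNase L, Oasl2 rose at FT 1 week. Oasl2 was uniform in NI at 9.90, 9.26 and 9.36 and read 32, 34.7 and 46.1 at HS 1 week, 45.5 and 13.3 at HS 2 weeks, 118 at FT 1 week and 15.6, 15.03 and 20.8 at FT 2 weeks. Every injured library exceeded every NI library. Its log2 fold change was 3.50 ± 0.51 at FT 1 week (adjusted p = 0.0125). That call held without any 1 of the 11 other libraries and was lost with only the NI and FT 1 week libraries in the fit. At HS 1 week the change was 1.86 ± 0.36 (adjusted p = 0.204), and Oasl2 passed the likelihood ratio test there (adjusted p = 0.00117). At HS 2 weeks its likelihood ratio adjusted p was 0.0375, with a limma-trend log2 fold change of 1.30 ± 0.41. Oas1a passed the likelihood ratio test at FT 1 week, as it did DESeq2 (likelihood ratio adjusted p = 0.00918), with 29.3 there and 1.49, 2.49 and 4.25 in NI. Oas2, Oas3 and Oasl1 did not pass, with FT 1 week values of 17.1, 6.31 and 10.9 that were below HS 1 week replicate 3 in each case. Oas1a belongs to a cluster of close paralogs, so its counts are uncertain to that extent.

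Eif2ak2 (PKR), the kinase that arrests translation on double-stranded RNA, was not called by either test. It read 14.6, 9.96 and 8.93 in NI, 24.1, 11.97 and 25.3 at HS 1 week, 18.2 and 12.01 at HS 2 weeks, 34.5 at FT 1 week and 13, 14.1 and 16.5 at FT 2 weeks. FT 1 week was the highest library, at a log2 fold change of 1.57 ± 0.44 (adjusted p = 0.196), and the other groups overlapped NI. Adar, the RNA-editing enzyme that limits sensing of self RNA, reached 65.4 at FT 1 week (log2 fold change 1.35 ± 0.54, adjusted p = 0.387). The exonuclease gene Isg20 was among the members with the smallest differences, at 4.03 at FT 1 week against 2.04, 4.47 and 6.62 in NI.

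The Mx genes, which encode dynamin-like GTPases that trap viral particles, were not called. Mx1 read 2.91, 6.83 and 6.91 in NI, 4.73, 2.95 and 25.1 at HS 1 week, 22.5 and 1.98 at HS 2 weeks, 19.1 at FT 1 week and 3.65, 3.26 and 3.19 at FT 2 weeks. Its 3 highest libraries are those with the 3 largest microglia sums. Mx2 reached 24.4 at FT 1 week and all HS 1 week libraries were above NI, with a log2 fold change of 1.02 ± 0.33 (adjusted p = 0.528). The reference annotation lists Mx2 as a polymorphic pseudogene, and Mx genes are defective in many laboratory strains, so their reads need not stand for a functional protein.

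The ISG15 system attaches the ubiquitin-like protein Isg15 to other proteins and, through Usp18, removes it and dampens the type I receptor. Isg15 was at 6.60, 4.98 and 5.33 in NI, 19.4, 11.5 and 23.7 at HS 1 week, 30.6 and 9.08 at HS 2 weeks, 49.2 at FT 1 week and 8.47, 13.3 and 14.3 at FT 2 weeks. Usp18 was at 28.3, 12.6 and 9.72 in NI, 88.1, 96.3 and 118 at HS 1 week, 102 and 22.2 at HS 2 weeks, 140.3 at FT 1 week and 33.2, 36.5 and 40.99 at FT 2 weeks. All injured libraries exceeded NI for Isg15, and for Usp18 HS 2 weeks replicate 2 was the exception. The log2 fold changes of Isg15 were 2.93 ± 0.58 at FT 1 week (adjusted p = 0.0654) and 1.49 ± 0.41 at HS 1 week (adjusted p = 0.468). The quasi-likelihood test and the likelihood ratio test both called Isg15 at FT 1 week (likelihood ratio adjusted p = 3.13e-05). Usp18 had log2 fold changes of 3.12 ± 0.70 at FT 1 week (adjusted p = 0.108) and 2.64 ± 0.49 at HS 1 week (adjusted p = 0.179), with likelihood ratio adjusted p-values of 8.37e-05 and 0.000167, and of 0.0437 at HS 2 weeks. Herc6, the main ISG15 ligase of the mouse, passed the likelihood ratio test at FT 1 week (adjusted p = 0.000904), with 58.1 against 10.5, 15.6 and 10.7 in NI. Trim25, a ubiquitin ligase that activates RIG-I, did not, with 22.8 against 5.74, 13.8 and 12.6.

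Of the 3 membrane restriction factors, Bst2 passed the likelihood ratio test at FT 1 week and Ifitm2 and Ifitm3 passed neither test. Bst2 (tetherin), which holds budding viruses on the cell, read 16.03, 14.9 and 18.5 in NI, 37.3, 22.7 and 55.8 at HS 1 week, 54.01 and 9.52 at HS 2 weeks, 129.7 at FT 1 week and 15.6, 22.5 and 12.5 at FT 2 weeks. Its highest library was FT 1 week, HS 2 weeks replicate 2 and FT 2 weeks replicate 3 lay below NI, and the log2 fold change at FT 1 week was 2.91 ± 0.74 (adjusted p = 0.152 by limma-trend and 0.00031 by the likelihood ratio test). Ifitm3, which blocks viral entry by fusion, was at 211, 213 and 164 in NI, 133, 134 and 196 at HS 1 week, 159 and 124 at HS 2 weeks, 222 at FT 1 week and 116, 199 and 256 at FT 2 weeks. Ifitm3 at FT 1 week exceeded the highest NI library by little, and its log2 fold change was 0.19 ± 0.41 (adjusted p = 0.91). At HS 2 weeks both its libraries lay below NI, as did those of Samd9l (11.6% of tested genes did so). Ifitm2 was the only member whose HS 1 week libraries, at 61.1, 53.7 and 43.6, all lay below NI, at 183, 71.6 and 105 (5.02% of tested genes lay below in every library). Its log2 fold change of -1.08 ± 0.36 did not pass the test (adjusted p = 0.562). The 3 membrane factors all carry ISRE letters, as the windows above describe for Bst2.

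Rsad2 (viperin), the enzyme that makes a chain-terminating nucleotide, was at 4.71, 4.53 and 4.75 in NI, 13.1, 11.2 and 16.6 at HS 1 week, 19.6 and 3.22 at HS 2 weeks, 18.7 at FT 1 week and 5.55, 7.46 and 11.6 at FT 2 weeks. NI was uniform, the libraries of HS 1 week, FT 1 week and FT 2 weeks all lay above it, and HS 2 weeks replicate 2 lay below it. The log2 fold changes were 1.80 ± 0.69 at FT 1 week (adjusted p = 0.363) and 1.35 ± 0.49 at HS 1 week (adjusted p = 0.598), and neither test called the gene. Cmpk2, a mitochondrial nucleotide kinase next to Rsad2 on chromosome 12, had smaller values, at 0.67 ± 0.35 and 0.62 ± 0.25 in the same comparisons.

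Parp9 and Dtx3l, which form an ADP-ribosylation and ubiquitination complex, passed the likelihood ratio test at FT 1 week (adjusted p = 0.00693 and 0.0141). Parp9 read 64.7 there against 5.11, 10.1 and 14.2 in NI, and Dtx3l read 72.4 against 8.64, 18.1 and 21.9. Their annotated spans overlap on opposite strands of chromosome 16, and the library kit does not mark the strand, so reads in the overlap cannot be assigned. Parp14, a neighbouring ADP-ribosyltransferase, read 28.9 against 3.38, 6.64 and 11.3 and did not pass.

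Among the other interferon-stimulated genes, Rtp4 and Xaf1 rose at FT 1 week. Rtp4, a chaperone of G protein-coupled receptors that is induced by interferon, read 14.4, 11.6 and 13.2 in NI, 38.2, 45.4 and 36.1 at HS 1 week, 37.6 and 14.8 at HS 2 weeks, 106 at FT 1 week and 13.2, 19.9 and 26.9 at FT 2 weeks. The HS 1 week, HS 2 weeks and FT 1 week libraries lay above all NI libraries, HS 2 weeks replicate 2 by little. The log2 fold change of Rtp4 at FT 1 week was 2.93 ± 0.47 (limma-trend adjusted p = 0.022). That call was lost without NI replicate 2, NI replicate 3 or FT 2 weeks replicate 2. At HS 1 week Rtp4 had a log2 fold change of 1.54 ± 0.34 and passed the likelihood ratio test (adjusted p = 0.0161). Xaf1, a pro-apoptotic antagonist of XIAP, read 28.8, 29.2 and 31.2 in NI, 72.1, 66.97 and 51.6 at HS 1 week, 53.6 and 45.4 at HS 2 weeks, 135 at FT 1 week and 46.01, 52.1 and 59.2 at FT 2 weeks. No injured library overlapped NI. The log2 fold change of Xaf1 was 2.15 ± 0.26 at FT 1 week (adjusted p = 0.00416), 1.06 ± 0.18 at HS 1 week (adjusted p = 0.116) and 0.79 ± 0.18 at FT 2 weeks (adjusted p = 0.269). Its FT 1 week call also held without any 1 of the 11 other libraries. It was lost with only the NI and FT 1 week libraries in the fit. By the likelihood ratio test, Ifi35 (78.97 at FT 1 week, adjusted p = 0.008), Ifi44 (19.9, adjusted p = 0.0131) and Ifi27l2a (260.3, adjusted p = 0.0293) also passed at FT 1 week, and Ifi44 passed at HS 2 weeks (adjusted p = 0.0473). Ifi27l2a and Ifi44 had their highest value outside FT 1 week, at 299.8 in HS 1 week replicate 2 and at 23.3 in HS 2 weeks replicate 1. Trim30a and Samd9l were not called, at 74.7 and 29.7 at FT 1 week.

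In order of level per kilobase of exon (group mean of the normalized count divided by the summed exon length of the GRCm38 annotation), Ifitm3, Ifitm2 and Ifi27l2a led in NI at 289, 183 and 109, and Oas3 and Ifi44 were last at 0.424 and 0.423. At FT 1 week Ifi27l2a led at 562, ahead of Ifitm3 at 327 and Bst2 at 144. Irf7 had rank 23 in NI at 3.74 and rank 10 at FT 1 week at 48.5, and Zbp1 had rank 45 at 0.604 and rank 23 at 16.6. The order is that of group means, and neighbours in it were not tested against each other. The called members lie on different chromosomes of GRCm38, with Stat2 at chr10:128270559-128292849, Irf7 at chr7:141262706-141266481, Zbp1 at chr2:173206612-173218923, Oasl2 at chr5:114896936-114912234, Rtp4 at chr16:23520291-23614222 and Xaf1 at chr11:72301629-72313733. The annotated span of Irf7 overlaps Phrf1 and that of Rtp4 overlaps Masp1, in both cases on the other strand.

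Members were next set beside the microglia sum of each library, because it differed inside every replicated group. The 2-fold counts that follow use log2 of the value plus 1, which damps the ratios of low values. Within NI, replicates 2 and 3 were at least 2-fold above replicate 1, the library with the lowest microglia sum, for 6 members (8.68% of tested genes), namely Ifngr1, Irf5, Irf8, Mx1, Trim25 and Trim30a. They were at least 2-fold below it for 2 members (3.59%), Ifit3 and Usp18. By plain ratio the numbers were 10 and 3, with Oas3, Adar, Isg20 and Dtx3l added above and Ifit1 below. HS 1 week replicate 2 and NI replicate 1 had the lowest microglia sums of their groups, 998 and 881. In this pair 13 members were at least 2-fold higher in the HS library on the value plus 1 scale (2.93% of tested genes), and 18 by plain ratio. Among the 13, the plain ratios included Ifit1 at 6-fold, Ifit3 at 5.41-fold, Irf7 at 5.25-fold, Ifi27l2a at 4.18-fold, Oasl2 at 3.50-fold, Usp18 at 3.40-fold and Rtp4 at 3.16-fold, whereas Irf8 was at 0.864-fold and Irf5 at 0.677-fold. The pair is 1 library against 1 and has no replicate check. Its other contents differed, with astrocyte markers summing to 10210 in the HS library and 4656 in NI replicate 1. Pericyte and fibroblast markers summed to 1801 and 7028, and neutrophil markers to 184 and 681, in the same order. The part of these differences was not tested. Equivalent pairs with NI replicate 1 gave 2 members for HS 2 weeks replicate 2 (3.86%) and 8 for FT 2 weeks replicate 2 (2.91%). The FT 1 week library exceeded both libraries with larger microglia sums, HS 1 week replicate 3 and HS 2 weeks replicate 1, for 32 members (33.9%). With the log2 microglia sum as a covariate in limma-trend, 8 members were called higher at HS 1 week (0.403% of tested genes). They were Ifit1, Ifit3, Irf7, Irf9, Oasl2, Rtp4, Usp18 and Xaf1. At FT 1 week 19 members were called higher (1.59%) and Irf5 lower (3.25%) in this fit. It called 0 members at HS 2 weeks (1.36% of tested genes in either direction) and 0 at FT 2 weeks (0.866%).

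**Figure D4:**
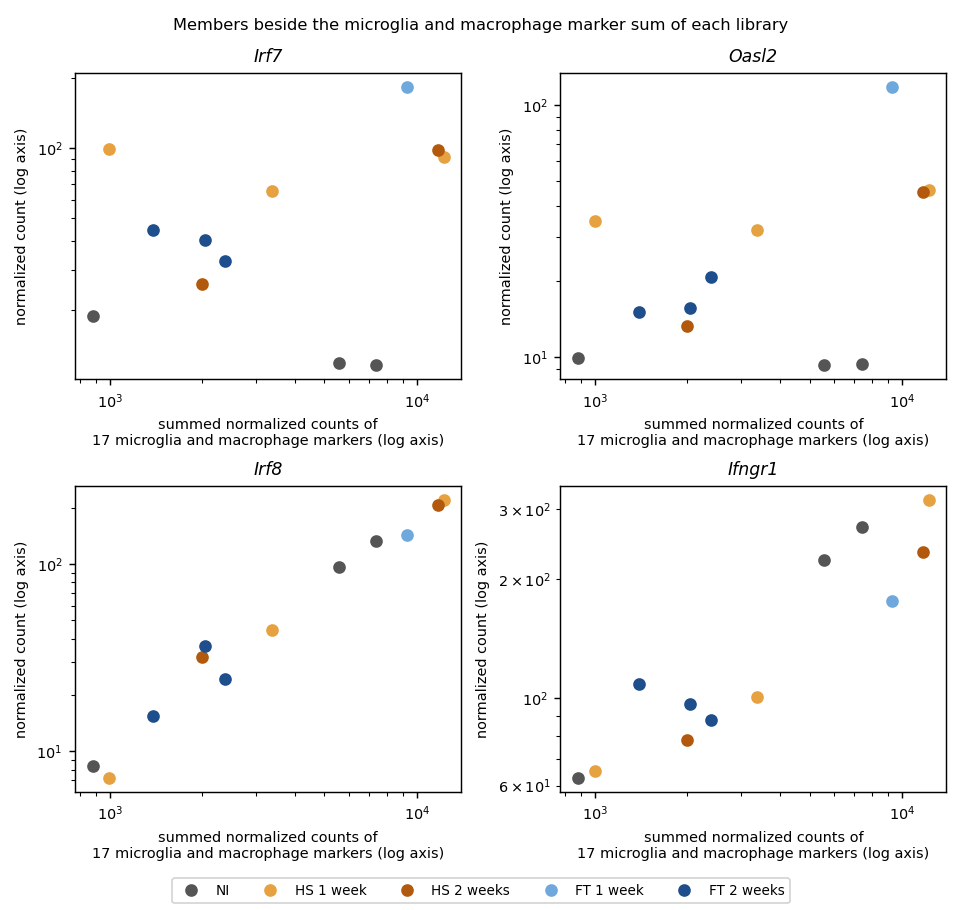
Normalized counts of Irf7, Oasl2, Irf8 and Ifngr1 against the summed normalized counts of the 17 microglia and macrophage markers, 1 point per library, both axes logarithmic. Across the 12 points Irf8 is mostly higher where the marker sum is higher, whereas HS 1 week replicate 2 has a sum of 998 and 99.1 of Irf7, and the NI libraries with sums of 5570 and 7383 have 11.9 and 11.6.

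**Figure D5:**
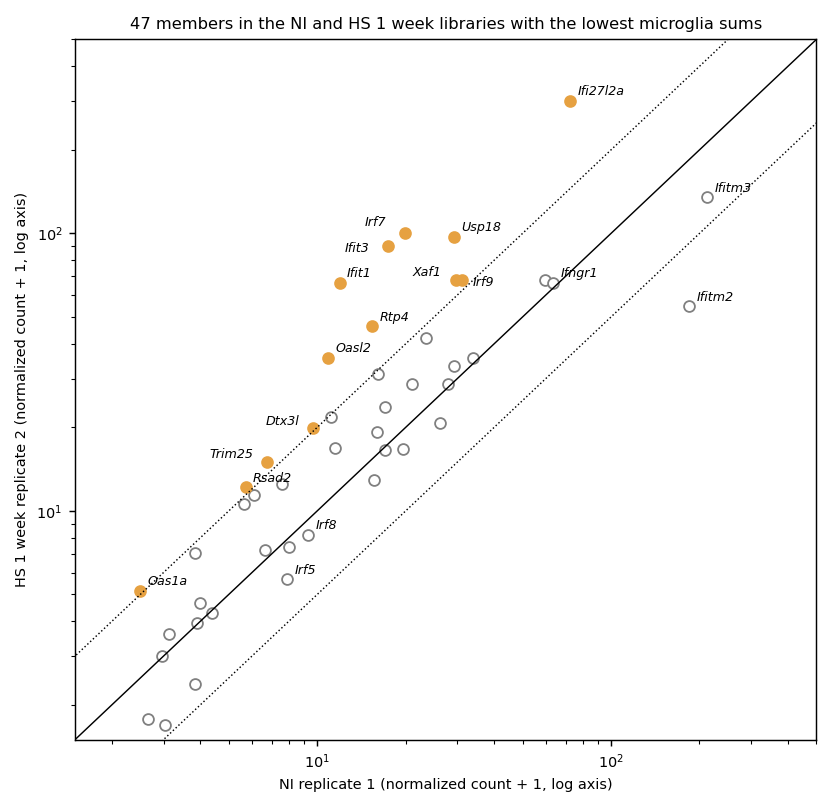
Normalized count plus 1 of the 47 members in HS 1 week replicate 2 (vertical) against NI replicate 1 (horizontal), both axes logarithmic, with the line of equality and dotted lines at 2-fold. Filled points are the 13 members at least 2-fold higher in the HS library, and Irf8 and Irf5 lie below the line of equality.

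The injuries were also compared with each other at each time. At 1 week, limma-trend called 0 members between FT and HS (0.348% of tested genes), with 13 at an unadjusted p under 0.05 (5.64% of tested genes). The likelihood ratio test and DESeq2 each called 1, Zbp1 (0.513% of tested genes were called higher by the likelihood ratio test), and quasi-likelihood called 0. The FT 1 week library lay above all 3 HS libraries for 33 members (19.1%). Zbp1 had the largest log2 fold change, 3.67 ± 0.71 (adjusted p = 0.0804 by limma-trend and 0.000239 by the likelihood ratio test). Irf1, at 2.38 ± 0.80, came next, and the members with large values at HS 1 week differed less, such as Irf7 at 1.12 ± 0.57, Ifit1 at 0.75 ± 0.69 and Usp18 at 0.48 ± 0.70. The median over the 47 members was 0.99. At 2 weeks the limma-trend count between FT and HS was 0, with 0 members at an unadjusted p under 0.05 (2.26% of tested genes) and 0 by each edgeR test and DESeq2. No member lay above both HS libraries in all FT libraries (11% of tested genes did), and the median was -0.38, a direction that turned with the library. Without HS 2 weeks replicate 1 it was 0.31, and without replicate 2 it was -1.26, with 26 members at an unadjusted p under 0.05.

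Over time after FT, Zbp1 fell by 4.30 on the log2 scale from 1 week to 2 weeks (SE 0.71, adjusted p = 0.0307), the only limma-trend call (0.281% of tested genes were called lower). That call was lost with a pseudocount of 0.25, with the quasi-likelihood test, which called Oasl2 instead, and without NI replicate 2, HS 1 week replicate 1 or any 1 FT 2 weeks library. The likelihood ratio test called 11 members lower (0.958%), namely Bst2, Dtx3l, Ifi27l2a, Ifi35, Irf7, Oas1a, Oasl2, Parp9, Rtp4, Stat2 and Zbp1. All 3 FT 2 weeks libraries lay below FT 1 week for 43 members (28.6%), 24 had an unadjusted p under 0.05 (9.17%), and the median log2 change was -1.65. Ifitm2 was the member with all FT 2 weeks libraries above FT 1 week (29.5% of tested genes were), at 101, 171 and 195 against 79.2. The microglia sum was 9289 at FT 1 week and 1388 to 2381 at FT 2 weeks, so time after FT moved together with that sum. After HS, limma-trend called 0 members between 1 and 2 weeks, with 1 at an unadjusted p under 0.05 (1.62% of tested genes), Cmpk2, and 0 by each edgeR test and DESeq2. Ifit3, Cmpk2 and Samd9l were lower in both HS 2 weeks libraries than in every HS 1 week library (6.72% of tested genes were). Ifit3 had a log2 change of -1.28 ± 0.62 (adjusted p = 0.9996) and Ifitm2, the 1 member that was higher (5.76%), one of 0.73 ± 0.40. The median over the members was -0.03, and -0.87 without HS 2 weeks replicate 1.

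Other lists of the interferon pathway were read in the same fit. They were set by name with earlier results of these data known, so their counts are a description and no independent test. Of 15 interferon-inducible GTPases, which attack the vacuoles of intracellular pathogens and are typical targets of interferon gamma, 13 rose at FT 1 week, led by Iigp1 (log2 fold change 7.15 ± 0.58, adjusted p = 0.000659). Their summed level was 2633 in the FT 1 week library and between 95.3 and 215 in the other 11. The same number, 13, were called higher against HS 1 week (0.287% of tested genes) and lower at FT 2 weeks than at FT 1 week (0.281%). Gbp2, Igtp and Irgm1 were the next by size at FT 1 week, at 4.72 ± 0.53, 4.70 ± 0.50 and 4.42 ± 0.44. Of 10 genes of MHC class I processing, Tap1 (3.66 ± 0.56, adjusted p = 0.0172) and Nlrc5 (2.69 ± 0.36, adjusted p = 0.00723) rose at FT 1 week. Of 27 further interferon-stimulated genes in the table, Ly6a rose (4.56 ± 0.74, adjusted p = 0.0219), and of 12 genes of nucleic acid sensing upstream of interferon none was called, with a median log2 fold change of 0.43. At HS 1 week, HS 2 weeks and FT 2 weeks limma-trend called 0 of the 64 genes of these 4 lists (0.0061%, 0.0122% and 0.0427% of tested genes), against 16 at FT 1 week (0.452%). The likelihood ratio test called 4 (0.372% of tested genes), 1 (0.757%) and 0 (2.22%) of them in those 3 groups and 35 (1.81%) at FT 1 week. An unadjusted p under 0.05 was found for 17 (7.66%), 8 (7.49%) and 5 (10.8%) of them, against 43 (11.2%) at FT 1 week. Of 12 T and NK cell markers 8 were in the table and Klrk1 rose at FT 1 week (3.54 ± 0.37, adjusted p = 0.00267), with a summed level of 42.7 in that library against 12.02, 37.5 and 83.6 in NI. The CD3 chain genes Cd3d, Cd3e and Cd3g read 0.671, 0.94 and 1.34 in the FT 1 week library. Of these, Cd3d lay below every NI library and Cd3e and Cd3g overlapped NI. Of the 8 markers, 3 lay above every NI library at FT 1 week (27.2% of tested genes), namely Klrk1, Gzmb and Cd8a. Below every NI library were 2 (30.1%), Cd3d and Nkg7. Their median log2 fold change there was 0.34.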

How the data were processed

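RNA of eGFP+ cells sorted from 12 pools of mice was sequenced after polyA selection with SMARTer Ultra Low and Nextera kits, which do not mark the strand. Per the study's methods and the submitters' processing notes, reads were aligned to mm10 with TopHat2 2.0.9, counted per gene with HTSeq 0.5.4p3 and scaled for library size with edgeR 3.3.6. The deposited values are signal on this normalized count scale. Whole reads were recovered from them by the value of a single read in each library, and 100% of values came out whole (largest departure 1.3e-09). Depth was 8270643 to 15562378 reads per library.

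Values were fitted as log2(normalized count + 1) with limma 3.58.1 (limma-trend, R 4.3.3) in 1 model of all 12 libraries with 1 term per group, over 16388 genes with a group mean of at least 0.5, and p-values were adjusted by Benjamini-Hochberg over these genes. The unit was not raw counts, so the count tests of edgeR 4.0.16 (likelihood ratio and quasi-likelihood) and DESeq2 1.42.0 on the recovered reads are alternatives. Other alternatives were pseudocounts of 0.25 and 4, no filter, a minimum of 5, median-ratio scaling, array quality weights, the compared groups alone, a replicate block, the microglia sum as a covariate and each library left out. Scripts were tested on simulated data. The members and gene lists were chosen with earlier results of these data known. Values of every library are given for members called by limma-trend and for 19 members set by name for their roles, and the others are given by role, with a value for those called by the likelihood ratio test. Of other lists, at most 4 called genes each are named. Some genes are not reported here.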

Additional observations from a re-analysis of the deposited data

Results flagged for a closer look

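The difference between 2 weeks and 1 week after FT was tested directly and passed for Zbp1, at -4.30 ± 0.71 (log2, SE, limma-trend adjusted p = 0.0307). Zbp1 read 58.6 in the FT 1 week library and 0.95, 2.10 and 3.56 at FT 2 weeks, against 1.96, 1.34 and 3.10 in NI. The same step after HS gave a log2 difference of 0.34, and whether the steps after FT and HS differ was not tested. The microglia sum was 9289 in the FT 1 week library and 1388 to 2381 at FT 2 weeks. With the log2 of that sum as a covariate in limma-trend, the Zbp1 difference was -3.56. With a single FT 1 week library, the part of that sum cannot be told apart from that of time. Since no group had more than 3 libraries, no search for outlying libraries was made.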

How the results depend on the processing

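No member called in the main limma-trend fit changed direction under any alternative that was run. Irf5 was not called in that fit, where its change at FT 1 week was positive, and was called lower there with the microglia covariate. The number of called members depended on the test, and so did the share of all tested genes called in the same direction, given in parentheses. For FT 1 week against NI, 6 by limma-trend (0.372%), it was 25 with array quality weights (2%), 21 by the edgeR likelihood ratio test (1.14%), 20 with the microglia covariate (4.84% in either direction), 19 by DESeq2 (1.03%) and 0 with only the compared groups (0%). For 2 weeks against 1 week after FT, 1 by limma-trend (0.281%), it was 11 with weights (0.909%), 11 by likelihood ratio (0.958%), 9 by DESeq2 (0.665%), 2 with the covariate (0.378%), 32 with only the compared groups (4.65%), 0 with a pseudocount of 0.25 (0.159%) and 3 with a pseudocount of 4 (0.439%). From a count of 0, HS 1 week against NI gave 15 with weights (2.26%), 9 by DESeq2 (0.421%), 6 by likelihood ratio (0.299%) and 8 with the covariate (0.403%), and HS 2 weeks gave 2 by DESeq2 (0.415%) and 4 by likelihood ratio (0.421%). FT 2 weeks gave 5 with weights (2.9%, or 8.83% in either direction), 2 by DESeq2 (0.58%) and 2 by likelihood ratio (0.47%). FT against HS at 1 week gave 5 with weights (0.83%) and 1 each by DESeq2 (0.409%), likelihood ratio (0.513%), covariate (0.543%) and a pseudocount of 4 (0.409%). The cause was not tested. Leaving out 1 library gave 0 to 2 called members for HS 1 week against NI. The 2 were Irf7 and Oasl2, without either HS 2 weeks library (0.0183%). For FT 1 week it gave 2 to 13. The 2 came without NI replicate 2 (0.281%) or NI replicate 3 (0.25%), and the 13 without either HS 2 weeks library (0.488%). For FT 2 weeks it gave 0 to 1 (Ifit1, without NI replicate 1, 1.12%). For FT against HS at 1 week it gave 0 to 2 (Irf1 and Zbp1, without HS 1 week replicate 3, 0.391%). For time after FT it gave 0 to 6, the 6 without HS 2 weeks replicate 1 (0.323%) or replicate 2 (0.317%).

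With the replicate number as a block, 0 members were called in each of the 5 comparisons that allow it. The same-numbered libraries did not pair: 5 of 15 pairs had a correlation of deviations over 0.1 (range -0.478 to 0.718). The FT 1 week label carries no number, so its comparisons have no blocked value. The single FT 1 week library, the pooled animals and the mixed cell content limit every statement on that group.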
